A study of Mus musculus with 9 samples.

Results

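The genes described are 9 components, regulators and receptors of the complement system, Cd55, Cd59a, Cr2, Cr1l, C3, Cfp, Cfb, C1qa and Serping1, taken by name from 18194 genes measured in mouse blood. Each gene was read from the probe set that carried its symbol alone and, where there were several, had the highest mean over the 9 arrays. This gave 8 of the 9 genes, from 14 probe sets, since no probe set was named C3 alone in the annotation used here, and C3 was not analysed here. Blood of 9 C57BL/6 mice, 8 to 9 weeks old and weighing 25 g on average, was measured on 1 array per animal, with 3 animals in each of 3 groups. Control mice (Ctrl) had no injury and were bled by cardiac puncture once anesthesia had been induced. Mice with polytrauma (PT) had a brain injury, a closed femoral fracture with soft tissue damage and a blunt trauma to both sides of the chest, and blood was taken 4 h later. Mice with polytrauma and hemorrhagic shock (PT + HS) had the same injuries and, from 1 h after them, lost blood until the mean arterial pressure was 30 mmHg, which was held for 60 min before balanced electrolyte solution of 4 times the blood volume drawn was given over 30 min. The study's methods describe continued anesthesia, buprenorphine and catheters for the injured mice. PT + HS mice were given fluid as well, and the study reports that they required norepinephrine to hold the blood pressure. Each of these and the injury or the bleeding cannot be told apart. The blood went directly into tubes with an RNA stabilizer, and RNA of leukocytes, platelets and immature red cells was therefore measured together.

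The authors used robust multiarray average to obtain the values, which are on the log2 scale, and a difference of 1 is a 2-fold difference. Levels of different genes were not compared, since each probe set has a brightness of its own. The linear model of limma was fitted to all genes and 9 arrays. A gene is called past the thresholds at an unadjusted p under 0.05 and at least 1.5-fold, which are the limits that the study set, and adjusted p-values are those of Benjamini and Hochberg over all 18194 genes. The median of the gene means was 4.29, and Cr2, C1qa and Serping1 had means below it. PT replicate 2 stood apart from the rest, with a correlation of 0.900 to 0.944 with each other array. In the alternative fit with array weights, PT replicate 1 had a weight of 4.96, and PT replicates 2 and 3 had 0.227 and 0.521. The weighted PT mean therefore rests mostly on 1 mouse, PT replicate 1. No batch or scan date was given in the sources used here.

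Complement is a cascade of plasma proteins that is started by the classical, lectin or alternative pathway, and all of these converge on the cleavage of C3. Fragments of C3 mark surfaces for uptake and are read by receptors on leukocytes, while regulators on the membrane and in plasma keep the cascade off the body's own cells. Many of the plasma components are made in the liver, whereas blood cells carry the membrane regulators and receptors and make properdin and, in part, other components.

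Cd55 and Cr2 both lay lower in the injured mice than in Ctrl, whereas Cr1l, which lies next to Cr2 on chromosome 1 in the RefSeq order of genes (GRCm38.p6), did not pass the thresholds. Cd55 is on the same chromosome, between Cd55b and Zp3r. The 250 bases before the start of these 3 genes are shown so that the upstream sequence of the pair that lay lower can be set beside that of the neighbour. They are RefSeq sequences of GRCm38.p6, all read on the minus strand, at chr1:130462745-130462994 for Cd55, chr1:195176720-195176969 for Cr2 and chr1:195131571-195131820 for Cr1l. Capitals mark a match to 1 of 5 short motifs of factors of B cells, of myeloid cells and of the stress response.
Cd55: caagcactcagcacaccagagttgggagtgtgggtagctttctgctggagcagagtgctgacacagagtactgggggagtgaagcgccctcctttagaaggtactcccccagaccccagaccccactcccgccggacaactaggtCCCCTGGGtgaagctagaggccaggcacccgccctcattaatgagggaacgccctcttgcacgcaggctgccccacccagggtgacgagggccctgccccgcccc
Cr2: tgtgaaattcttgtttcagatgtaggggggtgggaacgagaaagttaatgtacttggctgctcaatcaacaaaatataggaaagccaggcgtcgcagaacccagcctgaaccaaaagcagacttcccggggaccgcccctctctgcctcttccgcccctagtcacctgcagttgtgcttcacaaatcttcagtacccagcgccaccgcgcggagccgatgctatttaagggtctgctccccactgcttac
Cr1l: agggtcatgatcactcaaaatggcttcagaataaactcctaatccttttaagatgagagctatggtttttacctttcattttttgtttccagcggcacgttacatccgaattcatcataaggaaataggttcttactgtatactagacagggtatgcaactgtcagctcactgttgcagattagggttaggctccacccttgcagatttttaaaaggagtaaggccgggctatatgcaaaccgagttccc

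The motifs were the octamer ATTTGCAT, the core CCCNNGGG of early B-cell factor, the core GAGGAA of PU.1, the STAT motif TTCNNNGAA and the glucocorticoid half-site AGAACA, searched on both strands. The Cd55 sequence held 1 of them, CCCCTGGG, a match to the early B-cell factor core that begins 105 bases before the start. Cr2 and Cr1l held none of these letters in this window. Of 27025 RefSeq promoters cut to the same length, 1.61% held the octamer, 11.7% the early B-cell factor core, 23.1% the PU.1 core, 7.18% the STAT motif and 16.2% the glucocorticoid half-site. The share of G and C was 64.0% in Cd55, 53.6% in Cr2 and 41.6% in Cr1l. Promoter sequences were at hand for 6 of the 9 genes.

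Among the membrane regulators, Cd55, the decay-accelerating factor that takes apart the C3 convertases on a cell's own membrane, had the largest differences from Ctrl of the 8 genes. Its log2 values were 7.19, 7.81 and 8.56 in Ctrl, 5.42, 4.63 and 7.56 in PT and 5.41, 6.18 and 5.64 in PT + HS, in the order of the replicate numbers. All 3 PT + HS mice and PT replicates 1 and 2 lay below every Ctrl mouse, while PT replicate 3 lay within the range of Ctrl. The order of the means was Ctrl with 7.85 ± 0.69, PT with 5.87 ± 1.52 and PT + HS with 5.74 ± 0.40 (SD, n = 3). PT + HS differed from Ctrl by -2.11 on the log2 scale (standard error 0.65, 95% interval -3.56 to -0.66), that is 4.32-fold lower or 23.2% of the Ctrl level, and past the thresholds (adjusted p = 0.684 from limma). PT differed from Ctrl by -1.98 (standard error 0.65, 95% interval -3.43 to -0.54), or 3.96-fold, also past the thresholds (adjusted p = 0.71 from limma). PT and PT + HS are neighbours that did not differ beyond their spread, with -0.13 between them and an interval from -1.57 to 1.32. Without Ctrl replicate 3 the difference in PT was -1.63 and just no longer past the thresholds (unadjusted p = 0.0508 from limma). Without PT replicate 1 it was -1.76 and only just past them (unadjusted p = 0.044 from limma). The size of the difference depended most on PT replicates 2 and 3, without which it was -1.36 and -2.83. The call in PT was also lost with the methods' t-test, while PT + HS was past the thresholds in all 18 alternative fits. In samples of whole blood, fewer cells of a type and less RNA per cell cannot be told apart.

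The other probe sets of Cd55 were lower in the injured mice as well. The next brightest had means of 6.24 in the Ctrl mice, 4.96 in the PT mice and 4.61 in the PT + HS mice, with differences from Ctrl of -1.28 and -1.62. The dimmest had means of 6.29, 4.11 and 3.84, with differences of -2.18 and -2.45. In all 3 probe sets PT replicate 3 was the highest and PT replicate 2 the lowest of the PT mice. In the dimmest probe set the value of PT replicate 3, 5.50, lay below all Ctrl mice (5.73 to 6.91), so that PT and Ctrl did not overlap there. In the other probe sets it lay within the range of Ctrl. Cd55b, a closely related copy of Cd55 that lies beside it, was measured near the bottom of the scale, with a group mean of 2.34 for Ctrl, 2.33 for PT and 2.35 for PT + HS. Cross-hybridization between the copies was not tested.

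**Figure D1:**
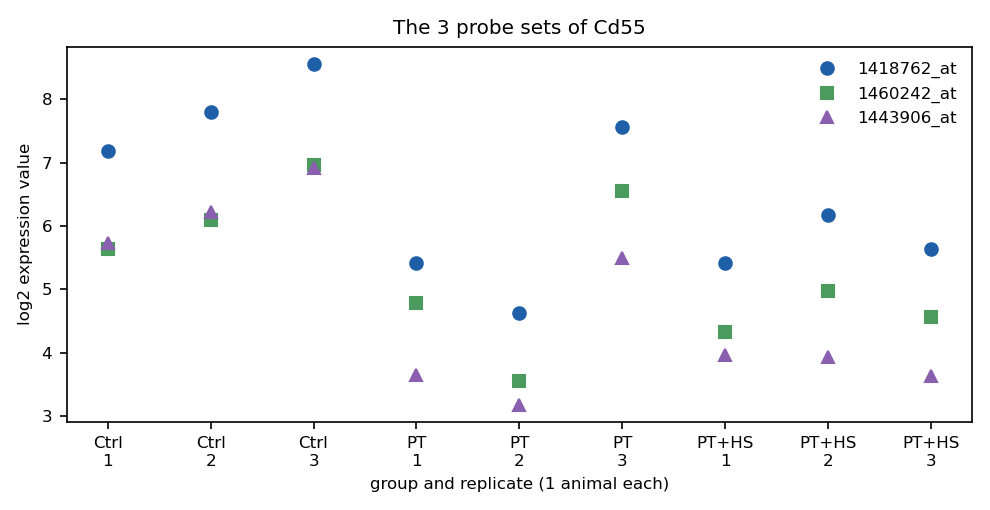
The log2 expression value (y axis) of the 3 probe sets of Cd55 in each of the 9 mice (x axis, by group and replicate number), 1 symbol and colour per probe set. In each probe set all PT + HS mice and PT replicates 1 and 2 lie below the 3 Ctrl mice, and PT replicate 3 is the highest of the PT mice. PT replicate 3 lies below the 3 Ctrl mice only in the probe set with the lowest mean over the 9 arrays.

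Cr2, the gene of the receptors for C3 fragments that lower the threshold of B-cell activation and retain antigen on follicular dendritic cells, followed the same order of groups as Cd55. Its values were 4.24, 4.70 and 5.34 in Ctrl, 3.34, 3.17 and 4.47 in PT and 2.86, 3.55 and 4.09 in PT + HS. PT + HS did not overlap with Ctrl, and PT overlapped only through PT replicate 3. The mean was 4.76 ± 0.55 for Ctrl, 3.66 ± 0.71 for PT and 3.50 ± 0.62 for PT + HS (SD, n = 3), so that those of the injured groups lay below the median of all gene means and the signal was weak there. PT + HS differed from Ctrl by -1.26 on the log2 scale (standard error 0.42, 95% interval -2.21 to -0.31), or 2.39-fold, past the thresholds (adjusted p = 0.814 from limma). PT differed by -1.10 (standard error 0.42, 95% interval -2.05 to -0.15), or 2.14-fold, past the thresholds (adjusted p = 0.799 from limma). PT + HS differed from PT by -0.16, with an interval from -1.11 to 0.79. The PT call was lost without Ctrl replicate 2 (-1.13), Ctrl replicate 3 (-0.81), PT replicate 1 (-0.94) or PT replicate 2 (-0.85), and the PT + HS call without Ctrl replicate 3 (-0.97) or PT + HS replicate 1 (-0.94). With the methods' t-test neither difference of Cr2 passed.

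Markers of B cells moved with Cd55 and Cr2. At the thresholds 10 of 11 measured markers were lower in PT than in Ctrl, with a median log2 difference of -1.70, and 9 were lower in PT + HS, with a median of -1.53. None of the 11 had an unadjusted p under 0.05 in limma between PT + HS and PT, and the median was -0.13. The sum of their linear intensities was 3082 to 5963 in Ctrl, 640 to 3034 in PT and 1215 to 1695 in PT + HS. PT replicate 3, which had the high values of Cd55 and Cr2, also had the highest sum of the PT mice with 3034, and PT replicate 2 the lowest with 640. Among the markers, Fcer2a, the low-affinity receptor of IgE, differed from Ctrl by -2.18 in PT and by -2.31 in PT + HS, and Cd79a, a chain of the B-cell receptor complex, by -1.20 and -1.17. Pax5, a transcription factor that defines B cells, was the one marker with a mean below the median of all genes, and it did not pass in either comparison, with 0.36 and -0.37.

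Set against the mean log2 value of these 11 markers in the same mouse, a measure chosen after the values had been seen and given without a test, Cd55 and Cr2 had smaller differences from Ctrl. Cd55 minus the marker mean was -0.34, -0.27 and 0.13 in Ctrl, -0.99, -0.98 and 0.03 in PT and -0.84, -0.57 and -0.67 in PT + HS. The mean of Cd55 relative to the markers differed from Ctrl by -0.49 in PT, with PT replicate 3 within the Ctrl range, and by -0.53 in PT + HS. Leaving out 1 mouse gave -0.83 to -0.32 in PT (-0.83 without PT replicate 3, -0.32 without PT replicate 1 or 2) and -0.62 to -0.39 in PT + HS, and without Pax5 among the markers the differences were -0.30 and -0.41. Cr2 minus the marker mean was -3.29, -3.38 and -3.09 in Ctrl, -3.06, -2.44 and -3.06 in PT and -3.38, -3.19 and -2.22 in PT + HS. The mean of Cr2 relative to the markers was 0.40 above Ctrl in PT, but 0.19 without PT replicate 2, and it was 0.32 above Ctrl in PT + HS, but -0.04 without PT + HS replicate 3. Without Pax5 these differences were 0.58 and 0.44. The 10 markers other than Pax5 themselves differed from Ctrl by -2.47 to -1.02 in PT and by -2.31 to -0.90 in PT + HS, and the differences of both Cd55 and Cr2 lay within these ranges. The part of B-cell abundance in the differences of Cd55 and Cr2 was not tested.

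**Figure D2:**
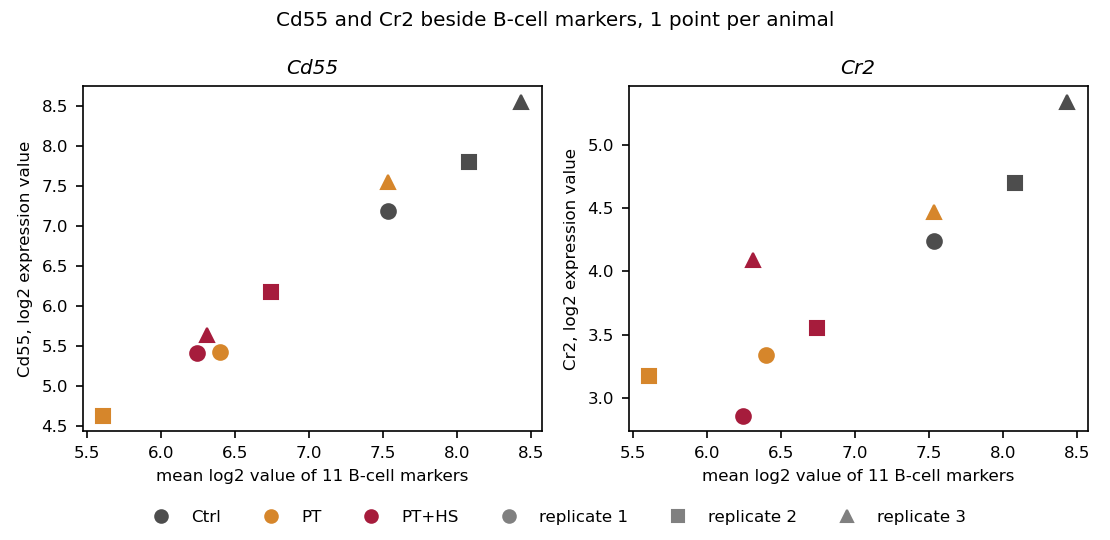
The log2 expression value of Cd55 (left, y axis) and Cr2 (right, y axis) against the mean log2 value of 11 B-cell markers (x axis), with 1 point per mouse, the group as colour and the replicate number as symbol. The 3 Ctrl mice and PT replicate 3 lie at the upper right in both panels, and the other 5 injured mice at the lower left.

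Over the 9 arrays, Cd55 and Cr2 had a Pearson r of 0.92 with each other, and of 0.82 for the deviations from the group means. Among 9092 genes with a mean above the median, the patterns most like that of Cd55 were those of Gpd1l (r = 0.99), Sbk1 (r = 0.99) and Cd22 (r = 0.98), the last an inhibitory co-receptor of B cells. For Cr2 they were those of Tmc6, Lpgat1 and Malt1 (r = 0.96 for each), the last a signaling protein of antigen receptors. With the measured B-cell markers other than Pax5, r was 0.93 to 0.98 for Cd55 and 0.76 to 0.95 for Cr2, and with Pax5 it was -0.31 and -0.22. These r describe 9 arrays in 3 groups that share one normalization, and an r picked as the highest of so many is high by choice.

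Of the membrane regulators, Cr1l and Cd59a did not pass in any comparison. Cr1l (Crry), the broadly expressed rodent inhibitor of C3 convertases, had 6.86, 7.65 and 7.97 in Ctrl, 7.76, 6.98 and 8.47 in PT and 7.36, 7.52 and 7.49 in PT + HS. The 3 groups overlapped, and the PT + HS mice were the closest to each other. The means were 7.74 ± 0.75 in PT, 7.50 ± 0.57 in Ctrl and 7.46 ± 0.09 in PT + HS (SD, n = 3). The difference from Ctrl was 0.24 in PT (95% interval -0.60 to 1.08) and -0.04 in PT + HS (95% interval -0.88 to 0.80), and PT + HS differed from PT by -0.28 (95% interval -1.12 to 0.56). About the group means Cr1l nevertheless varied with Cd55, with r = 0.92 of the deviations, against r = 0.50 of the values themselves. Both genes spread most in PT (SD 1.52 for Cd55 and 0.75 for Cr1l), so that the r of the deviations rests mostly on the PT mice. Its nearest patterns were those of Zcchc2, Setd7 and Dnajc10 (r = 0.97 to 0.98). The other probe sets of Cr1l gave 0.03 and -0.35 in PT and -0.14 and -0.30 in PT + HS, the larger values coming from one with group means of 2.25 to 2.60.

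Cd59a, a GPI-anchored protein that blocks the last step of the membrane attack complex, had 7.74, 7.55 and 7.25 in Ctrl, 7.26, 7.80 and 7.26 in PT and 6.99, 7.42 and 7.50 in PT + HS. The groups overlapped, with a mean of 7.51 for Ctrl, 7.44 for PT and 7.30 for PT + HS. The differences were -0.08 in PT (95% interval -0.57 to 0.42), -0.21 in PT + HS (95% interval -0.71 to 0.29) and -0.14 between PT + HS and PT (95% interval -0.64 to 0.36). These intervals include 0, and in PT + HS the lower end exceeds a fall of 1.5-fold both against Ctrl and against PT. The other probe set gave -0.11 in PT and -0.11 in PT + HS. A related gene, Cd59b, lies beside it in the RefSeq order and was not analysed here. Cross-hybridization between Cd59a and Cd59b was not tested, so that the value may not be that of Cd59a alone. Tff1, Sulf2 and Nme4 had the most similar patterns (r = 0.94 to 0.96).

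Among the components, properdin and C1qa had their highest value in the same mouse. Cfp (properdin), a stabilizer of the alternative convertase that neutrophils release, had 5.77, 5.28 and 5.52 in Ctrl, 6.26, 5.23 and 5.26 in PT and 6.84, 5.29 and 6.05 in PT + HS. C1qa, a chain of the recognition protein of the classical pathway, had 4.09, 3.30 and 3.43 in Ctrl, 3.76, 3.62 and 3.0 in PT and 5.07, 3.74 and 3.75 in PT + HS. PT + HS replicate 1 was the highest of all 9 mice for both genes, and the groups overlapped in every comparison. Cfp differed from Ctrl by 0.06 in PT (95% interval -0.82 to 0.95) and by 0.54 in PT + HS (95% interval -0.34 to 1.42), and PT + HS differed from PT by 0.47 (95% interval -0.41 to 1.35). None of these passed, but without PT + HS replicate 2 the difference of PT + HS was 0.92 from Ctrl and 0.86 from PT, and both were past the thresholds. Without PT + HS replicate 1 the same differences were 0.15 and 0.08. With array weights the difference from PT was -0.07, where the PT mean rests mostly on PT replicate 1 (6.26). The other probe set of Cfp gave 0.02, 0.28 and 0.25 in the same order of comparisons.

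C1qa differed from Ctrl by -0.15 in PT (95% interval -1.0 to 0.70) and by 0.58 in PT + HS (95% interval -0.27 to 1.43). Between PT + HS and PT the difference was 0.73 (95% interval -0.12 to 1.58), the largest between these groups among the 8 genes, and it did not pass. Without PT + HS replicate 1 it was 0.29, and the difference of PT + HS from Ctrl was 0.14. The other chains of C1q, whose genes lie beside C1qa on chromosome 4, were also highest in PT + HS replicate 1, with 4.99 for C1qb and 4.70 for C1qc against at most 4.36 and 4.10 in the other mice. Macrophages are a main source of C1q, and of 8 macrophage markers 6 had means below the median of all genes. Their summed intensity was 109 to 129 in Ctrl, 105 to 157 in PT and 130 to 147 in PT + HS, with 0 of 8 past the thresholds in any comparison by limma and 1 at an unadjusted p under 0.05 in PT + HS against Ctrl. The part of such cells in the C1qa values was not tested. Cfp and C1qa had r = 0.82 over the arrays. The patterns most like Cfp were S100a6, Rab28 and Upp1 (r = 0.95 to 0.96) and those most like C1qa were Sdf2l1, Gsto1 and Upp1 (r = 0.93 to 0.94).

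Cfb, the protease of the alternative C3 convertase, had 4.22, 4.59 and 4.01 in Ctrl, 4.63, 4.77 and 4.23 in PT and 4.44, 4.59 and 4.53 in PT + HS. Serping1, the C1 inhibitor, had 3.16, 3.49 and 3.17 in Ctrl, 3.31, 3.93 and 3.33 in PT and 3.17, 3.48 and 3.33 in PT + HS. For both genes the groups overlapped, and the value of Serping1 lay below the median of all genes on every array. Cfb differed from Ctrl by 0.27 in PT (95% interval -0.19 to 0.73) and by 0.24 in PT + HS (95% interval -0.22 to 0.70), with -0.02 between PT + HS and PT. Serping1 differed from Ctrl by 0.25 in PT and by 0.05 in PT + HS, with -0.20 between PT + HS and PT, each with a standard error of 0.21. The most similar patterns were those of Nr5a1, Tysnd1 and Nrap for Cfb (r = 0.94 to 0.96) and of Ccndbp1, Pxmp4 and Nup210l for Serping1 (r = 0.93 to 0.98).

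**Figure D3:**
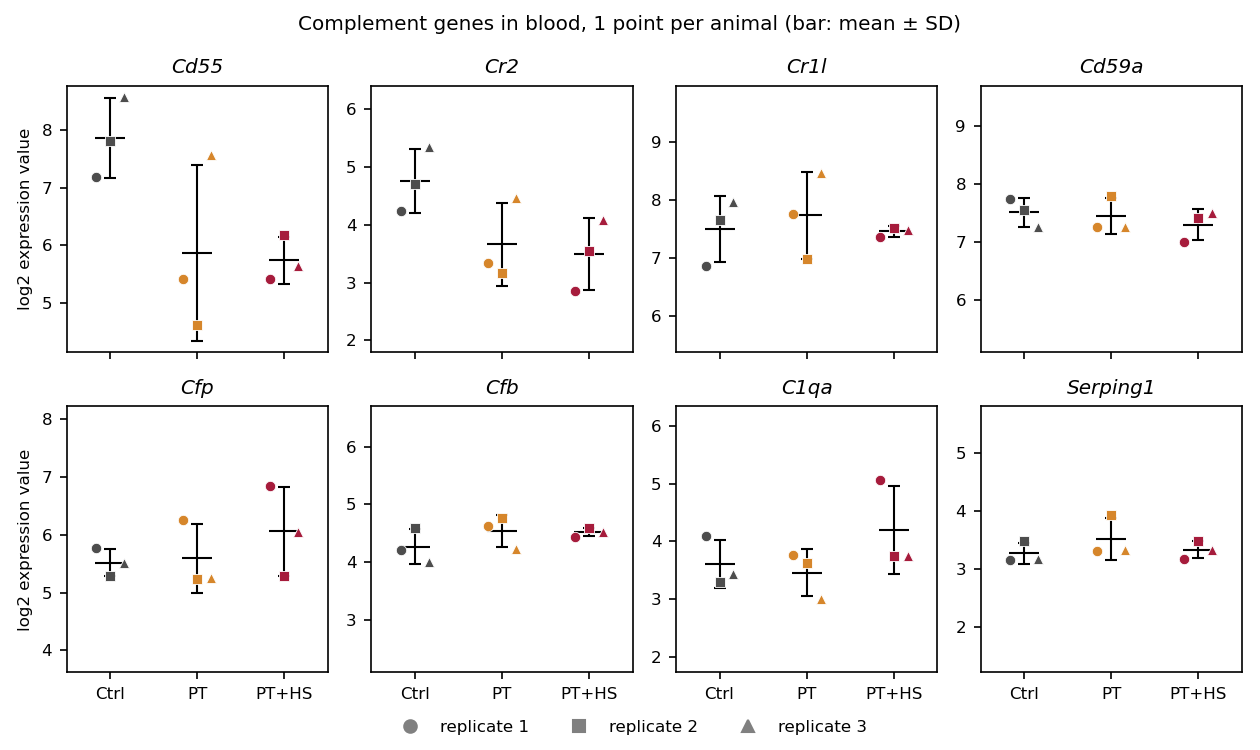
The log2 expression value (y axis) of the 8 measured genes in each mouse, by group (x axis), with the replicate number as symbol and bars for the mean ± SD of 3 mice. Every panel spans the same number of log2 units. Cd55 and Cr2 are lower in PT + HS than in all Ctrl mice, and PT replicate 3 lies at the Ctrl level.

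Counted together, 2 of the 8 genes, Cd55 and Cr2, were past the thresholds and lower in PT than in Ctrl, where 3.67% of all 18194 genes were past them and 2.26% were lower. In PT + HS the same 2 genes were lower than in Ctrl, where 3.28% of all genes were past the thresholds and 1.29% were lower. Both comparisons use the same Ctrl arrays and are therefore not independent. Between PT + HS and PT, 0 of the 8 passed by limma, 0 had an unadjusted p under 0.05 and 0 passed with the methods' t-test, where 1.12% of all genes were past the thresholds. The groups did not overlap for 0 of 8 genes between PT and Ctrl (9.44% of all genes), for Cd55 and Cr2 between PT + HS and Ctrl (13.2%) and for 0 of 8 between PT + HS and PT (7.17%). The median difference over the 8 genes was -0.01, 0.01 and -0.13 in the 3 comparisons, beside 0.00, -0.01 and 0.00 over all genes. At an adjusted p under 0.05 from limma 0 of the 8 passed in any comparison, beside 0% of all genes in PT against Ctrl, 0.0055% in PT + HS against Ctrl and 0% in PT + HS against PT. The methods' t-test also gave 0 after adjustment, and at the thresholds it gave 0 of the 8 in PT and 1, Cd55, in PT + HS.

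**Figure D4:**
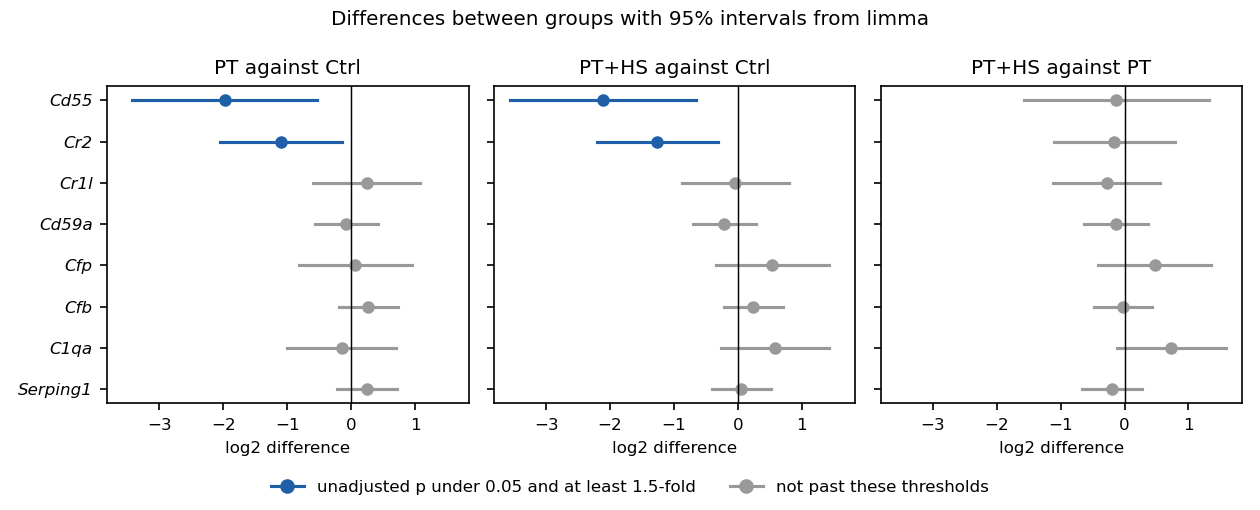
Log2 differences (x axis) of the 8 genes (y axis) in the 3 comparisons with 95% intervals from limma, in blue where past an unadjusted p under 0.05 and 1.5-fold. Cd55 and Cr2 lie below 0 in both comparisons with Ctrl, and all intervals between PT + HS and PT include 0.

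A wider list of 52 complement genes, of which 44 were measured, held the 8 genes and 36 others. Of the 44, 3 (6.82%) were past the thresholds in PT against Ctrl, beside 3.67% of all genes. In PT + HS against Ctrl 5 (11.4%) passed, beside 3.28% of all genes, and in PT + HS against PT 0, beside 1.12%. In the last comparison 2 had an unadjusted p under 0.05 in limma, and the methods' t-test gave 0 at the thresholds. Apart from Cd55 and Cr2, those that passed were higher, 1 of 36 in PT (1.41% of all genes were higher) and 3 of 36 in PT + HS (1.99% of all genes). The 3 in PT + HS were Itgam, C5ar1 and Cd93, which stand among the receptors of the wider list. The median over the 36 was 0.13 in PT and 0.03 in PT + HS. Of the 44 genes 31 had a mean below the median of all genes, among them all 6 measured genes of the terminal pathway and 7 of 8 of the lectin pathway, so that little can be read of the components made mainly in the liver.

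Itgam, the alpha chain of complement receptor 3 (Mac-1), which binds a fragment of C3, had 4.95, 5.38 and 5.29 in Ctrl, 6.59, 6.12 and 5.69 in PT and 6.77, 5.41 and 6.57 in PT + HS. Both injured groups lay above Ctrl without overlap, PT + HS replicate 2 only just so. The differences were 0.93 in PT (standard error 0.36, adjusted p = 0.796 from limma) and 1.04 in PT + HS (adjusted p = 0.814 from limma), both past the thresholds. The PT call was lost without Ctrl replicate 1 (0.80) or PT replicate 1 (0.70), and the PT + HS call without Ctrl replicate 1 (0.91), PT + HS replicate 1 (0.78) or PT + HS replicate 3 (0.88) and with the methods' t-test. C5ar1, the receptor of the anaphylatoxin C5a, had 4.66, 4.60 and 4.58 in Ctrl, 4.71, 4.87 and 5.18 in PT and 5.56, 5.11 and 5.58 in PT + HS. Neither injured group overlapped with Ctrl, while PT and PT + HS overlapped. PT + HS was past the thresholds against Ctrl, by 0.80 (standard error 0.19, adjusted p = 0.432 from limma), also without any one array, and PT was not, by 0.31 (95% interval -0.12 to 0.73). Between PT + HS and PT the difference was 0.50 (95% interval 0.08 to 0.92), under 1.5-fold, and it was past the thresholds without PT replicate 3 (0.63) or PT + HS replicate 2 (0.65). It also passed with array weights (0.66), where the PT mean rests mostly on PT replicate 1 (4.71), the lowest PT mouse. Cd93, a membrane glycoprotein that was first described as a C1q receptor, was past the thresholds in PT + HS against Ctrl with 0.76 (standard error 0.33, adjusted p = 0.999 from limma). Its values of 7.24, 7.04 and 8.37 in PT + HS overlapped with 7.06, 6.57 and 6.75 in Ctrl. Without PT + HS replicate 3 the difference of Cd93 was 0.35 and not past the thresholds. The call was also lost without Ctrl replicate 2 (0.65), Ctrl replicate 3 (0.74) or PT replicate 1 (0.76), with the methods' t-test, with repeated quantile normalization (0.79) and with the mean of its probe sets (0.39). Its difference in PT was 0.45 (95% interval -0.28 to 1.18).

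Of the 36 other genes that did not pass, Masp2, a protease of the lectin pathway, had 0.52 and Csmd2 had 0.49 in PT against Ctrl, and Csmd2 had -0.54 in PT + HS against PT. Fcnb, a ficolin of myeloid cells, had 4.33, 4.73 and 4.42 in PT + HS, above all values in Ctrl (4.04 to 4.15) and PT (4.05 to 4.10), with a difference of 0.41 from each, which is under 1.5-fold. Mbl2, also of the lectin pathway, went the other way, with 2.97, 2.82 and 2.71 in PT + HS, below all values in Ctrl (2.98 to 3.36) and PT (2.99 to 3.03). Its differences were -0.32 from Ctrl and -0.17 from PT, at a level below the median of all genes. Between PT and Ctrl the groups did not overlap for 8 of the 44 genes, 5 higher and 3 lower in PT, beside 9.44% of all genes. The lower ones were C2, a component of the classical and lectin convertase, with -0.44 and the soluble regulators Clu and Cpn2 with -0.41 and -0.37, all under 1.5-fold. The higher ones were Itgam, C5ar1, C4bp (0.20), C6 (0.15) and Vsig4 (0.22). Like Mbl2, the genes Masp2, Csmd2, Fcnb, Cpn2, C4bp, C6 and Vsig4 had means over the 9 arrays below the median of all genes. Between PT + HS and Ctrl the groups did not overlap for 4 of the 44 that were higher and 4 that were lower in PT + HS, beside 13.2% of all genes. Between PT + HS and PT this held for 1 higher, Fcnb, and 1 lower, Mbl2, beside 7.17% of all genes. By role, the receptors of C3 and C1q fragments held most of the calls, in both directions. In PT 2 of 6 passed, Itgam higher and Cr2 lower, where 3.67% of all genes were past the thresholds. In PT + HS 3 of 6 passed, Itgam and Cd93 higher and Cr2 lower, where 3.28% of all genes were past them. The membrane regulators held 1 of 7 in each, which was Cd55. The classical, lectin, alternative and terminal pathways and the soluble regulators held none at the thresholds, and 1 of 2 anaphylatoxin receptors passed in PT + HS.

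**Figure D5:**
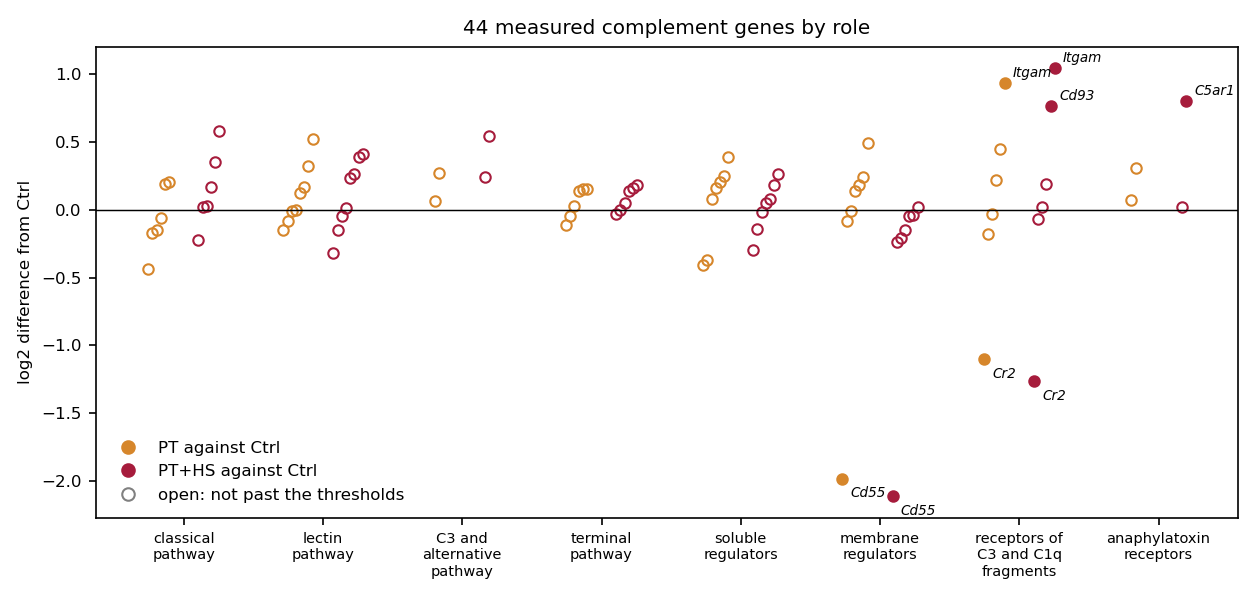
Log2 differences from Ctrl (y axis) of 44 complement genes grouped by role (x axis), for PT and PT + HS, 1 point per gene, filled and named where past an unadjusted p under 0.05 and 1.5-fold. Cd55 and Cr2 lie below all others, and Itgam, Cd93 and C5ar1 are the filled points above 0.

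Neutrophil markers were higher in the injured mice, as was Itgam in both groups and C5ar1 and Cd93 in PT + HS. Of 11 measured markers 6 were higher in PT and 7 in PT + HS than in Ctrl at the thresholds, with medians of 1.23 and 1.51, and 0 passed between PT + HS and PT by limma, where 0 had an unadjusted p under 0.05. Their summed intensity was 4315 to 8113 in Ctrl, 7334 to 19191 in PT and 10139 to 24338 in PT + HS. In PT + HS the mouse with the lowest sum, replicate 2, also had the lowest Itgam, C5ar1 and Cd93 of its group. In the other groups the order differed from gene to gene. PT replicate 1 had the highest sum of the PT mice, the highest Itgam (6.59) and the lowest C5ar1 (4.71). PT replicate 2 had the lowest sum and the highest Cd93 (7.49). Ctrl replicate 1 had the highest sum of Ctrl, the highest Cd93 (7.06) and C5ar1 (4.66) and the lowest Itgam (4.95). Of 10 monocyte markers 2 were higher and 4 lower in PT, and 2 were higher and 1 lower in PT + HS. The part of these cells in the values of the receptors was not tested. Of the other marker lists, 3 of 7 for NK cells and 1 of 9 for platelets were lower in PT than in Ctrl, and in PT + HS 1 of 7 for NK cells was lower and 1 of 7 each for dendritic cells and hepatocytes was higher. All 9 platelet markers had a lower mean in PT than in Ctrl, with a median of -0.42, and 4 had an unadjusted p under 0.05 in limma. In PT + HS all 9 had a lower mean too, with a median of -0.12. Clu differed from Ctrl by -0.41 in PT and by -0.14 in PT + HS, and the part of platelets in it was not tested. None of 11 for T cells and none of 9 for red cell precursors passed against Ctrl in limma, and at an unadjusted p under 0.05 there were also 0. Between PT + HS and PT, 3 of 10 monocyte markers and 1 of 7 for NK cells were higher in PT + HS, and none of the other marker lists held a call.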

How the data were processed

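Blood RNA of 9 mice was measured on 9 arrays, 3 per group, 1 per animal. The replicates are animals per the study's methods. The authors deposited log2 values from robust multiarray average (background correction, quantile normalization between arrays, then 1 summary value per probe set). Versions of their software were not given in the sources used here. This scaling forces a like distribution on all arrays, so that a change of all RNA would not be seen. The probe set names belong to another array type than the study's methods name, and the annotation of the names was used. Of 45101 probe sets, 34958 had 1 symbol, 932 several and 9211 none.

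The 8 genes, the wider list, the markers and the motifs were chosen with earlier results of these data known. No filter on low values was applied. limma 3.58.1 in R 4.3.3 was fitted with 1 mean per group, two-sided moderated tests and Benjamini-Hochberg adjustment over 18194 genes. The number of arrays limits the precision. In data simulated for PT against Ctrl, 83% of genes changed 2-fold and 99% of those changed 4-fold were past the thresholds, and 33% and 86% passed an adjusted p under 0.05. The noise was drawn for each gene on its own, without deviations that genes of an array share. These shares therefore may not hold for the measured data, where Cd55, 3.96-fold lower in PT, had an adjusted p of 0.71 from limma. Genes named are the 8, every gene of the wider list past the thresholds or among the 3 largest differences of a comparison, marker genes, and the 3 most alike genes per member by Pearson r. Also named are C2, Clu, Cpn2, C4bp, C6, Vsig4, Mbl2, Cd55b, C1qb and C1qc, which were chosen after their values were seen. The alternatives run were the methods' t-test, the arrays of a comparison alone, a variance trend, array weights, equal medians, repeated quantile normalization, genes above the median, probe sets of a gene averaged, a replicate block, leaving out each array, a 2-fold threshold and the adjusted p.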

Additional observations from a re-analysis of the deposited data

How the results depend on the processing

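Of 585 differences of single genes recomputed under the alternatives set out at the start, 555 kept their side of the thresholds, 24 were no longer past them, 6 newly passed and none that had passed changed sign, while 37 that never passed had another sign. Most of the 585 were of differences that were not calls, so that the 555 do not measure how stable the calls are. The call of Cd55 was lost in 2 of 18 alternatives in PT and 0 of 18 in PT + HS, and that of Cr2 in 5 of 17 and 3 of 17. The rest of the 24 were of Itgam and Cd93. Cd55 ranged from -2.83 to -1.36 in PT and from -2.44 to -1.76 in PT + HS, and Cr2 from -1.50 to -0.81 and from -1.55 to -0.94. The members past the thresholds numbered 2 in PT and 2 in PT + HS. With the methods' t-test they were 0 and 1, among genes with a mean above the median 1 and 1 (Cr2 is below it), and at an adjusted p under 0.05 they were 0 and 0. Leaving out 1 array gave 0 to 2 in PT, 1 to 3 in PT + HS and 0 to 1 between PT + HS and PT, where the reported count is 0. Of the wider list, 3 and 5 against Ctrl became 1 and 2 with the t-test and 0 and 0 at an adjusted p under 0.05, and the 5 became 3 at 2-fold. Without 1 array they were 1 to 5 in PT (1 without Ctrl replicate 3 or PT replicate 1, 5 without PT replicate 3) and 3 to 7 in PT + HS (3 without Ctrl replicate 3, PT + HS replicate 1 or PT + HS replicate 3). Between PT + HS and PT the count of 0 became 2 with array weights and 0 to 3 without 1 array (1 when PT replicate 2 was left out, 3 for PT replicate 3 and 2 for PT + HS replicate 2). Where no other reason is given, the cause was not tested.

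Nothing in the sources ties animals of the same replicate number, and the deviations of 9 same-numbered pairs had r from -0.115 to 0.478, over 0.1 in 3 pairs. In 6 of 18 combinations of an array with another group, the highest r was to the same number. With the replicate block 1 member was past the thresholds between PT + HS and PT, C1qa with 0.73 (0.29 without PT + HS replicate 1 in the fit with no block), which is also the 1 gene of the wider list, and the members past them against Ctrl stayed at 2 and 2. Cd93 in PT + HS was no longer past them under the block (0.76).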
